A study of Mus musculus with 9 samples.

Results

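Antioxidant defence was followed through 10 genes, fixed by name: the regulator Nfe2l2 (ENSMUSG00000015839) and its repressor Keap1 (ENSMUSG00000003308), the enzyme genes Nqo1 (ENSMUSG00000003849), Hmox1 (ENSMUSG00000005413), Gclc (ENSMUSG00000032350), Gclm (ENSMUSG00000028124) and Srxn1 (ENSMUSG00000032802), and the superoxide and peroxide enzymes Sod1 (ENSMUSG00000022982), Sod2 (ENSMUSG00000006818) and Cat (ENSMUSG00000027187). All 10 were among the 56941 gene identifiers of the count table, and all 10 were among the 18548 genes that passed the low-count filter. Their levels were compared in pancreatic islets of wild-type male C57BL/6J mice, which were 15 weeks old when they started 9 months on a low fat control diet with 10% fat (LFD, 3 libraries), a high fat diet with 60% fat (HFD, 2 libraries) or a ketogenic diet with 89.9% fat (KD, 4 libraries). The study asked how the ketogenic diet alters transcripts of the islet. No transgene or other treatment was named for any group, and no label states whether a library came from 1 mouse or several, so the p-values measure the spread between these libraries.

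NRF2, the protein encoded by Nfe2l2, is a transcription factor that drives genes for glutathione synthesis, quinone reduction and peroxide removal by binding antioxidant response elements together with small MAF proteins. KEAP1 holds NRF2 in the cytoplasm and passes it to a ubiquitin ligase, and oxidants or electrophiles release it, so much of the control acts on the protein and is not seen in transcript counts. Pancreatic beta cells are known for low levels of several peroxide-removing enzymes compared with liver, which is why this set of genes is often examined in islets.

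Antioxidant response elements have a core whose letters were searched as TGACNNNGC and TGAGNNNGC, on both strands, in the 250 bases upstream of each gene's start (RefSeq, GRCm38.p6). The search covered 8 of the 10 genes. Of the 32851 promoters of the same length, 10.2% held TGACNNNGC, 14.4% held TGAGNNNGC and 23% held at least 1 of them. A match was found for 4 of the 8 genes: 1 each in Nfe2l2, Gclm and Sod1, and 2 in Srxn1. No match was found in the windows of Keap1, Nqo1, Sod2 and Cat. The promoters of Nfe2l2 (chr2:75704664-75704913, minus strand) and Keap1 (chr9:21239333-21239582, minus strand) are shown because this regulator and its repressor had the smallest p-values of the 10 genes between KD and LFD, and that of Srxn1 (chr2:152105274-152105523, plus strand) because it held the most matches. Each is written 5′ to 3′ on the strand of its gene, and capitals mark the matches.
Nfe2l2: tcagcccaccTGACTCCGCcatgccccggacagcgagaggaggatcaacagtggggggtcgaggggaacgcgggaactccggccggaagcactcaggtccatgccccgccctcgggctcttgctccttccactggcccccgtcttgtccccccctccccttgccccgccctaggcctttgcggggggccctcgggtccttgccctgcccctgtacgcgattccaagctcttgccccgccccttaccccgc
Keap1: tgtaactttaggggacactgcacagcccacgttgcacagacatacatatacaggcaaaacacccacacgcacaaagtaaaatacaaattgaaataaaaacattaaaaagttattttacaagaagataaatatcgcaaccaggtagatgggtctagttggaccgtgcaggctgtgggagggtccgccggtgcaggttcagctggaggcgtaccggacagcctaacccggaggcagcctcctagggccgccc
Srxn1: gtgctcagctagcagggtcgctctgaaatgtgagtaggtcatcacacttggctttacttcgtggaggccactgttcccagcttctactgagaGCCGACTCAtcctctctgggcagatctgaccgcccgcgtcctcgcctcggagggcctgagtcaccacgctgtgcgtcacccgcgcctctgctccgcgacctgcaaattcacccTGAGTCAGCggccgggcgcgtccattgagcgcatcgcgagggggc
The match in Nfe2l2, TGACTCCGC, lay 240 to 232 bases upstream of the start on the strand of the gene. In Srxn1, TGAGTCAGC lay 45 to 37 bases upstream on the strand of the gene. There, TGAGTCGGC lay 158 to 150 bases upstream on the other strand, so that the capitals show its reverse complement. The match of Gclm was TGACGGTGC, 134 to 126 bases upstream, and that of Sod1 was TGACCACGC, 56 to 48 bases upstream, both on the other strand. These are matches of letters and not measured binding sites.

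Libraries held 15513502 to 26588390 counts, and no libraries of a diet agreed within sampling noise. Levels are given below as CPM, the depth-normalized counts of a gene, on library sizes scaled by TMM, a scaling that sets the typical gene equal between libraries. The islet hormone genes Ins1, Ins2, Gcg, Sst and Ppy were found in every library, Ins2 at 17778 to 66138 CPM. A list of 33 acinar genes, which mark the enzyme-secreting tissue around islets, took 15.3% to 36.1% of counts on LFD, 11.4% to 19.1% on HFD and 20.6% to 61.3% on KD. Macrophage markers (11 genes) summed to 97.9 to 171 CPM on LFD, 122 to 152 on HFD and 52.0 to 96.0 on KD, and lymphocyte markers (14 genes) to 74.3 to 1276, 57 to 76.1 and 6.95 to 27.3 CPM, with Ms4a1 at 0 in at least 1 HFD and 1 KD library. In such bulk tissue, fewer cells of a type and less RNA per cell cannot be told apart. The labels name no date or batch of isolation or sequencing, and a batch that went with diet cannot be told apart from it.

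None of the 10 genes passed an adjusted p of 0.05 in any of the 3 diet comparisons when tested by edgeR's quasi-likelihood method, with p-values adjusted over all genes by Benjamini-Hochberg. The ranges of 2 diets were separate for 3 of the 10 between KD and LFD, 4 between HFD and LFD and 4 between KD and HFD, beside 19.7%, 27.5% and 33.9% of all genes tested, so such a separation was common. Keap1 and Sod2 were higher in every KD library than in any LFD or HFD library, Nfe2l2 was lower in every KD library than in any LFD library, and Gclc and Cat were lower in both HFD libraries than in any LFD library. Levels of Hmox1, Sod1, Gclm and Srxn1 overlapped in all 3 comparisons.

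**Figure D1:**
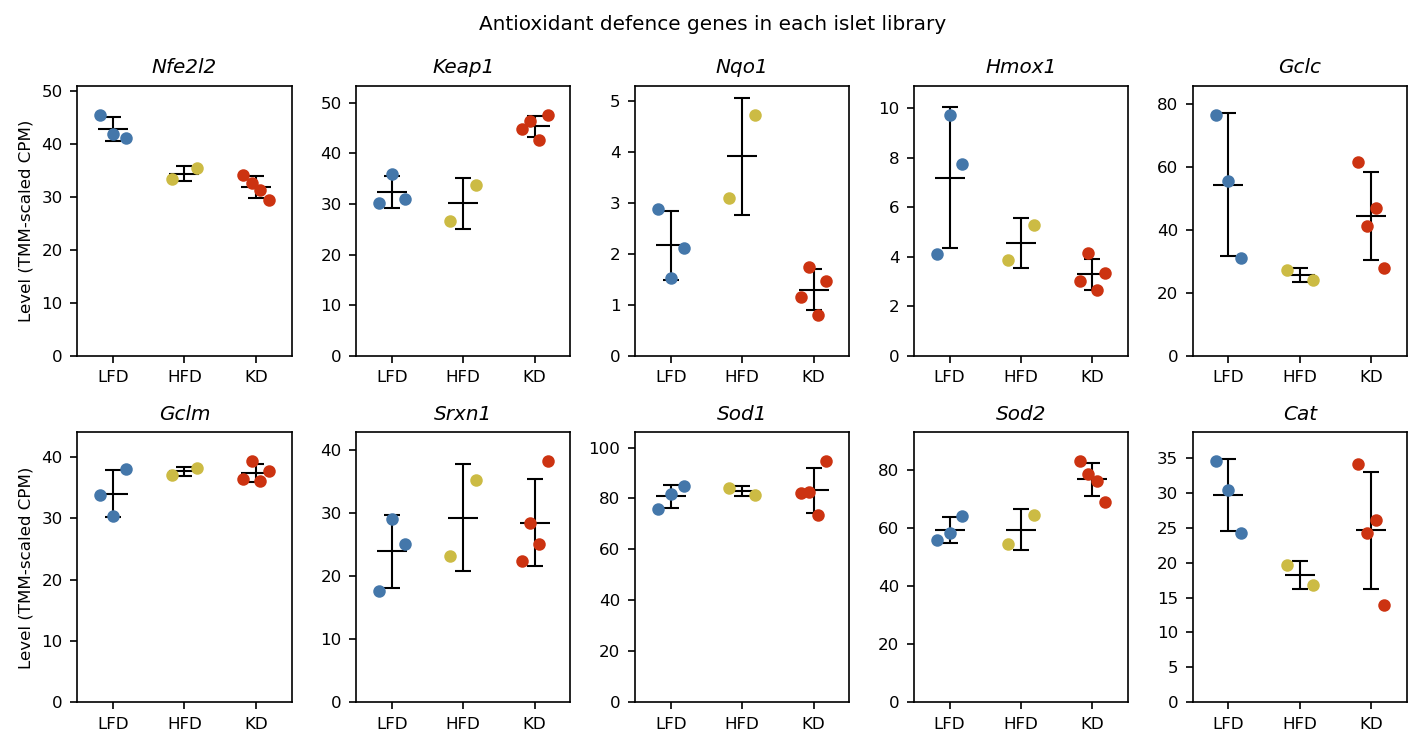
Level of each of the 10 genes in TMM-scaled CPM (vertical axis, from 0) in every library of the LFD, HFD and KD diets, with the mean and SD of each diet as bars. The 4 KD libraries lie at 42.6 to 47.6 CPM for Keap1, above all LFD and HFD libraries, and at 29.4 to 34.2 CPM for Nfe2l2, below the 3 LFD libraries.

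The regulator Nfe2l2 was measured at 45.5, 41.9 and 41.2 CPM in LFD libraries 1 to 3, at 33.4 and 35.4 CPM in HFD libraries 1 and 2, and at 34.2, 32.6, 31.3 and 29.4 CPM in KD libraries 1 to 4. All 3 LFD libraries lay above all 6 libraries of the fat-rich diets, while HFD and KD overlapped. Mean levels were 42.9 ± 2.30 CPM (SD, n = 3) for LFD, 34.4 ± 1.41 (SD, n = 2) for HFD and 31.9 ± 2.03 (SD, n = 4) for KD. Against LFD the KD difference was -0.43 on the log2 scale (SE 0.11), with an unadjusted edgeR p of 0.00255 and an adjusted p of 0.0553. The HFD minus LFD difference was -0.32 (SE 0.13, edgeR adjusted p = 0.479), and both comparisons use the same LFD libraries. KD minus HFD was -0.11 (SE 0.13), with a 95% interval from -0.39 to 0.17.

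Keap1, which encodes the adaptor that hands NRF2 to the ubiquitin ligase, was highest on KD. It was measured at 30.2, 36.0 and 31.0 CPM on LFD, at 26.6 and 33.7 CPM on HFD, and at 44.8, 46.3, 42.6 and 47.6 CPM on KD. The 4 KD libraries were above the 5 others, and LFD and HFD overlapped. Means were 32.4 ± 3.12 CPM (SD, n = 3) on LFD, 30.2 ± 5.03 (SD, n = 2) on HFD and 45.3 ± 2.15 (SD, n = 4) on KD. Against LFD the KD level was 1.4-fold, a log2 difference of 0.48 (SE 0.13, edgeR adjusted p = 0.0570), and against HFD it was 1.5-fold, a log2 difference of 0.59 (SE 0.15, adjusted p = 0.124). The HFD minus LFD difference was -0.10 (SE 0.15).

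The ratio of Keap1 to Nfe2l2 counts within a library does not depend on how libraries are scaled. It was 0.664, 0.859 and 0.752 in the LFD libraries, 0.796 and 0.953 in the HFD libraries, and 1.31, 1.42, 1.36 and 1.62 in the KD libraries. Nfe2l2 thus had more counts than Keap1 in all 5 LFD and HFD libraries and fewer in all 4 KD libraries. Counts also depend on length, and the principal transcripts have 2475 bases for Nfe2l2 and 3614 for Keap1. In CPM per kilobase of these, the means of Nfe2l2 and Keap1 were 17.3 and 8.97 on LFD and 12.9 and 12.5 on KD. A ratio of counts above 1 therefore does not mean more Keap1 than Nfe2l2 transcripts. The mean ratio was 0.758 ± 0.0974 (SD, n = 3), 0.875 ± 0.110 (SD, n = 2) and 1.43 ± 0.134 (SD, n = 4). This ratio was chosen after the values of the 2 genes had been seen and is given without a test. Within KD the ratio was lower in libraries with a higher acinar share: in KD libraries 4, 2, 3 and 1, at 20.6%, 45.2%, 56.9% and 61.3% acinar counts, it was 1.62, 1.42, 1.36 and 1.31. The 2 HFD libraries had the same order, at 11.4% and 19.1% with ratios of 0.953 and 0.796. In LFD libraries 3, 2 and 1, at 15.3%, 25.3% and 36.1%, it was 0.752, 0.859 and 0.664. The differences of both genes with the acinar score as a covariate are given below, and the part of acinar tissue in the ratio was not tested.

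**Figure D2:**
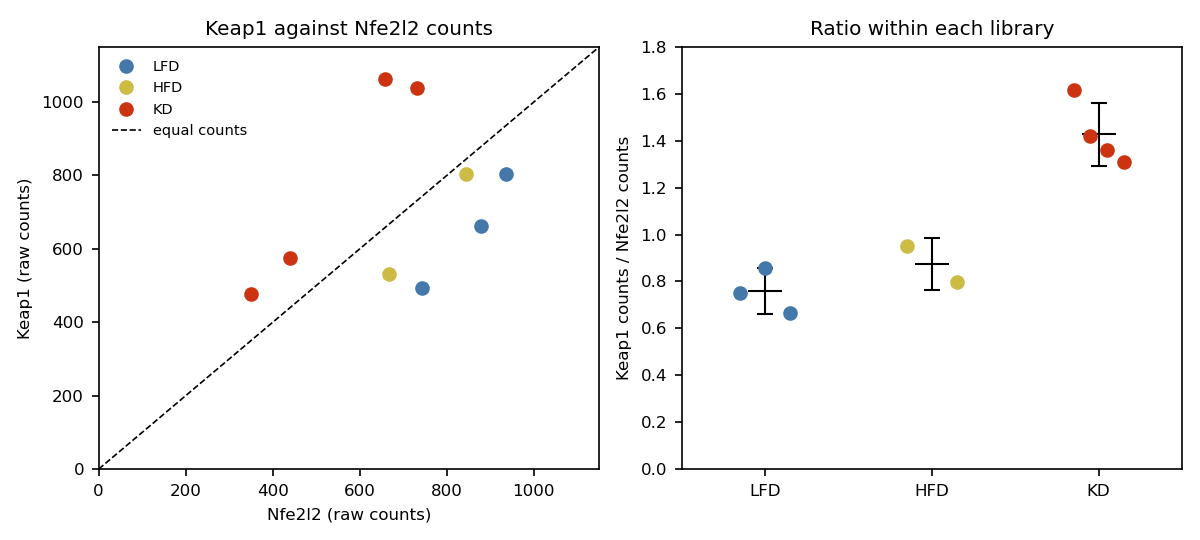
Left, raw Keap1 counts (vertical axis) against raw Nfe2l2 counts (horizontal axis) in each of the 9 libraries, with the line of equal counts; right, the ratio of the counts by diet, with mean and SD. The 4 KD points lie above the line at ratios of 1.31 to 1.62, and the 5 LFD and HFD points below it at 0.664 to 0.953. The line marks equal counts and not equal transcript levels, since the transcripts differ in length.

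With the acinar score, the mean log2 CPM of the 33 acinar genes, as a covariate, the KD minus LFD difference was -0.49 for Nfe2l2 (edgeR adjusted p = 0.0275) and 0.55 for Keap1 (adjusted p = 0.0247). In that fit 1505 of all genes passed between KD and LFD, beside 764 without the score. Over the 20 alternatives the differences of Nfe2l2 ran from -0.49 to -0.38, with adjusted p from 0.0121 to 0.351, and those of Keap1 from 0.43 to 0.63, with adjusted p from 0.0181 to 0.225.

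Glutathione synthesis starts with glutamate-cysteine ligase, whose catalytic subunit is encoded by Gclc and whose modifier subunit is encoded by Gclm. Gclc was measured at 76.5, 55.4 and 31.1 CPM on LFD, at 27.3 and 24.0 CPM on HFD, and at 61.5, 41.2, 46.8 and 27.8 CPM on KD. Both HFD libraries were below all others, by a small margin from KD library 4 at 27.8 CPM, and KD and LFD overlapped. Means were 54.3 ± 22.7 CPM (SD, n = 3) for LFD, 25.7 ± 2.34 (SD, n = 2) for HFD and 44.3 ± 13.9 (SD, n = 4) for KD. HFD minus LFD was -1.08 on the log2 scale (SE 0.38, unadjusted p = 0.0165, edgeR adjusted p = 0.422), KD minus LFD was -0.30 (SE 0.30, adjusted p = 0.601), and KD minus HFD was 0.79 (SE 0.36, adjusted p = 0.226).

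Gclm was far more even. Its levels were 33.7, 30.3 and 37.9 CPM on LFD, 37.1 and 38.2 CPM on HFD, and 36.3, 39.2, 36.1 and 37.7 CPM on KD. All diets overlapped. The KD minus LFD difference was 0.14 (SE 0.12), with a 95% interval from -0.12 to 0.39, and HFD minus LFD was 0.15 (SE 0.14), with an interval from -0.16 to 0.45. The 2 subunits thus varied unequally: the ratio of Gclc to Gclm counts ran from 0.629 in HFD library 2 to 2.27 in LFD library 1.

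The level of Gclc moved with the acinar share within each diet. In LFD libraries 3, 2 and 1, in order of acinar share at 15.3%, 25.3% and 36.1%, Gclc was 31.1, 55.4 and 76.5 CPM. In KD libraries 4, 2, 3 and 1, at 20.6%, 45.2%, 56.9% and 61.3%, it was 27.8, 41.2, 46.8 and 61.5 CPM. Catalase transcripts followed the same order of libraries, from 24.2 to 34.5 CPM on LFD and from 13.9 to 34.2 CPM on KD.

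**Figure D3:**
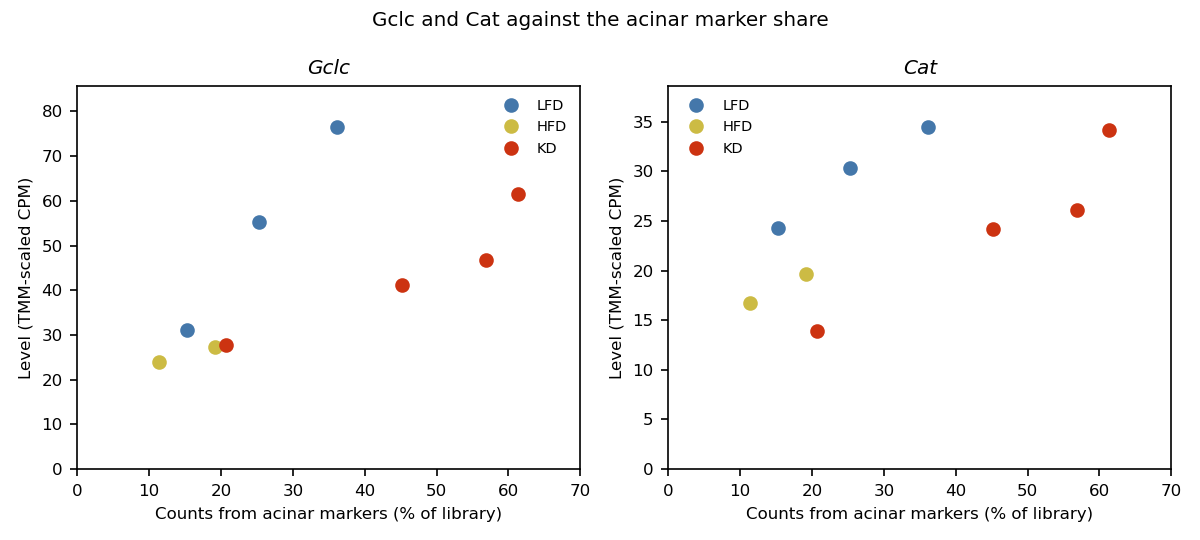
Level of Gclc (left) and Cat (right) in TMM-scaled CPM against the share of counts from 33 acinar genes (percent of the library), 1 point per library and coloured by diet. Within LFD and within KD both genes are higher in libraries with a higher acinar share, and LFD library 1, at an acinar share of 36.1%, has the highest level of both.

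With the acinar score as a covariate, the KD minus LFD difference was -0.77 for Gclc (edgeR adjusted p = 0.0155) and -0.75 for Cat (adjusted p = 0.0120), and both passed the threshold. The sizes without the covariate were -0.30 and -0.28. With the covariate 1505 of all genes passed between KD and LFD, beside 764 without it. Over the 20 alternatives the adjusted p ran from 0.0155 to 0.980 for Gclc and from 0.0120 to 0.828 for Cat. For HFD minus LFD the covariate moved Gclc from -1.08 to -0.49 (adjusted p = 0.577) and Cat from -0.70 to -0.26 (adjusted p = 0.778), and over the alternatives the adjusted p of these 2 differences ran from 0.0254 to 0.743 and from 0.0445 to 0.783. Without LFD library 1, the library with the most Gclc, the KD minus LFD difference of Gclc was 0.02.

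Srxn1 encodes sulfiredoxin, which repairs overoxidized peroxiredoxins. It was measured at 17.7, 29.0 and 25 CPM on LFD, 23.2 and 35.2 CPM on HFD, and 22.3, 28.4, 25 and 38.1 CPM on KD. The diets overlapped, and on HFD and on KD the library with the lowest acinar share had the highest level. KD minus LFD was 0.25 (SE 0.23, edgeR adjusted p = 0.541) and HFD minus LFD was 0.29 (SE 0.27, adjusted p = 0.722). The intervals, from -0.25 to 0.76 and from -0.30 to 0.88, include differences of either sign.

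Nqo1, a quinone reductase gene that is often used as a readout of NRF2 activity, had few counts, from 9 in KD library 3 to 113 in HFD library 2. Its levels were 2.88, 1.52 and 2.11 CPM on LFD, 3.10 and 4.73 CPM on HFD, and 1.17, 1.74, 0.802 and 1.48 CPM on KD. Both HFD libraries were above all 7 others, while KD and LFD overlapped. Means were 2.17 ± 0.681 CPM (SD, n = 3), 3.92 ± 1.15 (SD, n = 2) and 1.30 ± 0.404 (SD, n = 4). KD minus HFD was -1.56 on the log2 scale (SE 0.38, unadjusted p = 0.00170, edgeR adjusted p = 0.124), the smallest unadjusted p of the 10 genes in that comparison. HFD minus LFD was 0.86 (SE 0.41, adjusted p = 0.510) and KD minus LFD was -0.70 (SE 0.36, adjusted p = 0.269). Without KD library 4, the KD minus HFD differences of Nqo1 and Keap1 passed, with edgeR adjusted p of 0.0396 and 0.0451. In that fit 1793 of all genes passed, beside 0 with all libraries, so passing was not particular to these genes. Over their alternatives the adjusted p ran from 0.0121 to 0.497 for Nqo1 and from 0.0119 to 0.497 for Keap1.

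Hmox1 encodes heme oxygenase 1, an inducible enzyme that breaks down heme and that macrophages also express. It was counted 30 to 217 times, and its levels were 4.11, 9.72 and 7.74 CPM on LFD, 3.85 and 5.28 CPM on HFD, and 3.03, 4.14, 2.67 and 3.36 CPM on KD. KD libraries lay below LFD libraries except that KD library 2, at 4.14, slightly exceeded LFD library 1, at 4.11. Means were 7.19 ± 2.85 CPM (SD, n = 3), 4.57 ± 1.01 (SD, n = 2) and 3.30 ± 0.627 (SD, n = 4). KD minus LFD was -1.11 (SE 0.30, unadjusted p = 0.00317, edgeR adjusted p = 0.0600), the largest difference of the 10 genes between these diets. It passed without LFD library 1 (edgeR adjusted p = 0.0445), where 177 of all genes passed, beside 764 with all libraries. Over all alternatives its adjusted p ran from 0.0129 to 0.353. All 11 macrophage markers had a negative KD minus LFD difference, with a median of -0.66, and 2 of them passed the test. This was not particular to macrophages. All 14 lymphocyte markers (median -5.11), all 8 fibroblast markers (-0.79) and 5 of 7 duct markers (-0.72) were negative too. The medians of the acinar and beta cell lists were 1.51 and 0.21. With a macrophage score as a covariate, an alternative chosen after seeing the data, the Hmox1 difference was -0.96 (adjusted p = 0.353). The summed macrophage markers were lower in every KD library than in any LFD library, so this fit separates diet and markers poorly. With the score, 5 of all genes passed between KD and LFD, beside 764 without it. The part of macrophages in the Hmox1 values was not tested.

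Superoxide is turned into hydrogen peroxide by SOD1 in the cytosol and by SOD2 in mitochondria, and catalase degrades the peroxide. Sod2 was measured at 55.7, 58.3 and 64.3 CPM on LFD, 54.5 and 64.4 CPM on HFD, and 82.9, 78.7, 76.2 and 69.1 CPM on KD. Every KD library exceeded every LFD and HFD library. Means were 59.4 ± 4.38 CPM (SD, n = 3), 59.4 ± 7.02 (SD, n = 2) and 76.7 ± 5.78 (SD, n = 4), so that KD was 1.29-fold of LFD, a log2 difference of 0.37 (SE 0.12, unadjusted p = 0.0108, edgeR adjusted p = 0.107). KD minus HFD was also 0.37 (SE 0.14, adjusted p = 0.160). Transcripts encoded by the mitochondrial genome summed to 15016 to 19084 CPM on LFD, 10023 to 21629 on HFD and 6922 to 12311 on KD, so their summed level in the KD libraries was below that in the LFD libraries; its part in the Sod2 values was not tested.

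Sod1 was the most even of the 3. It was measured at 75.7, 81.9 and 84.7 CPM on LFD, 84.1 and 81.4 CPM on HFD, and 82.1, 82.5, 73.5 and 94.5 CPM on KD. The diets overlapped, and the KD minus LFD difference was 0.04 (SE 0.12) with a 95% interval from -0.22 to 0.31. Cat was measured at 34.5, 30.3 and 24.2 CPM on LFD, 19.7 and 16.8 CPM on HFD, and 34.2, 24.2, 26.1 and 13.9 CPM on KD. Both HFD libraries were below all LFD libraries, and KD overlapped with both other diets. Its difference from LFD was -0.70 on HFD (SE 0.31, unadjusted p = 0.0411, edgeR adjusted p = 0.487) and -0.28 on KD (SE 0.25, adjusted p = 0.544).

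**Figure D4:**
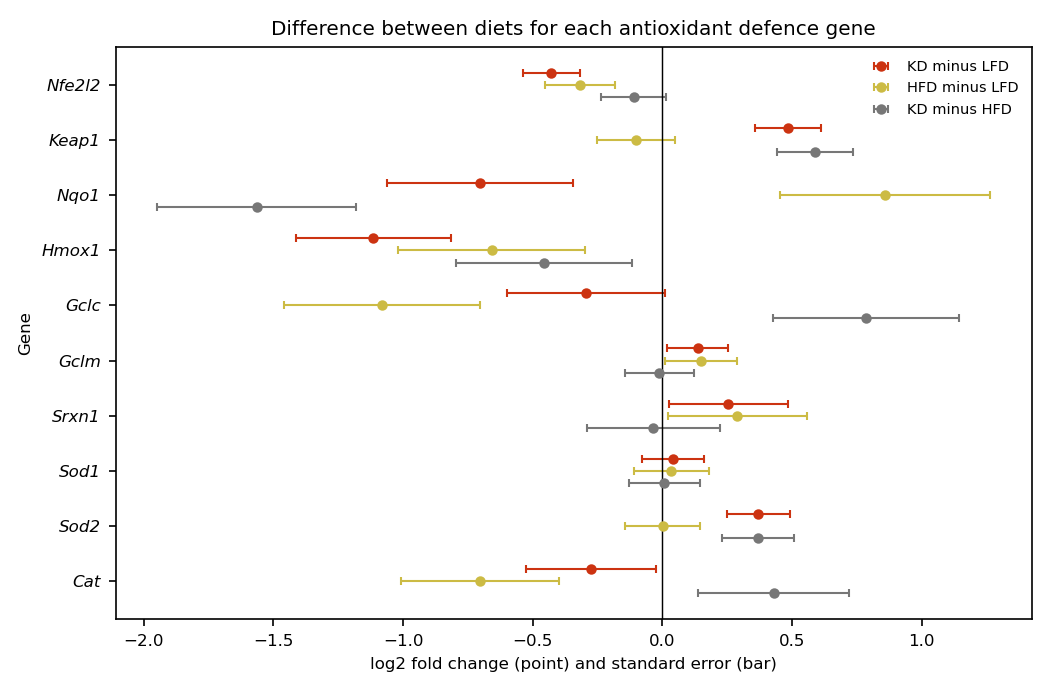
Log2 fold change (point) and standard error (bar) of each of the 10 genes between diets: KD minus LFD in red, HFD minus LFD in yellow and KD minus HFD in grey, with the vertical line at 0. Hmox1 at -1.11 and Nfe2l2 at -0.43 lie to the left for KD minus LFD, Keap1 at 0.48 and Sod2 at 0.37 to the right, and Sod1 lies near 0 in all 3 comparisons.

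Counted over the 10 genes, 4 had an unadjusted p under 0.05 between KD and LFD (Nfe2l2, Keap1, Hmox1 and Sod2), where 22.7% of all genes did. The adjusted threshold was passed by 0 of 10, beside 4.12% of all genes. KD and LFD libraries did not overlap for 3 of the 10, beside 19.7% of all genes, and 5 of 10 had a difference above 0, beside 48.1%. The median difference of the 10 was -0.12 and that of all genes -0.02. DESeq2's Wald test called 3 of the 10 (Nfe2l2, Keap1 and Hmox1), beside 9.57% of all genes, and limma-voom 3 (Nfe2l2, Keap1 and Sod2), beside 10.1%.

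Between HFD and LFD, 3 of the 10 (Nfe2l2, Gclc and Cat, all lower on HFD) had an unadjusted p under 0.05, beside 9.99% of all genes, and the edgeR adjusted threshold was passed by 0 of 10, beside 0% of all genes. Libraries did not overlap for 4 of the 10 (those 3 and Nqo1), beside 27.5%, and 5 of 10 were above 0, beside 49.8%. DESeq2 and limma-voom called 0 of the 10 here, beside 1.45% and 0.0539% of all genes. Between KD and HFD, 3 of the 10 (Keap1, Nqo1 and Sod2) had an unadjusted p under 0.05, beside 22.7% of all genes, and 0 of 10 passed the edgeR adjusted threshold, beside 0%. Libraries did not overlap for 4 (Keap1, Nqo1, Gclc and Sod2), beside 33.9%, and 5 of 10 were above 0, beside 46.6%. DESeq2 called 2 of the 10 here (Keap1 and Nqo1), beside 9.92% of all genes with an adjusted p, and limma-voom 0, beside 0%. The 2 comparisons with HFD rest on 2 HFD libraries, and each pair of comparisons shares libraries.

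Levels between genes were compared as CPM per kilobase of the principal transcript, averaged over the LFD libraries. Sod1 was highest at 126 ± 7.20 (SD, n = 3), although the estimate per kilobase of all its exons is lower, 20.7 instead of 128 over all 9 libraries, because its 641-base principal transcript is a small part of the 3970 bases of annotated exons. Nfe2l2 followed at 17.3 ± 0.928 and Gclc at 15.9 ± 6.64, which do not differ beyond their spread. Cat at 11.4 ± 1.97, Sod2 at 10.1 ± 0.747, Keap1 at 8.97 ± 0.864 and Srxn1 at 8.5 ± 2.05 also overlapped with their neighbours. Gclm at 6.08 ± 0.686, Hmox1 at 4.58 ± 1.81 and Nqo1 at 1.4 ± 0.439 were the lowest. On KD, with Nfe2l2 at 12.9 ± 0.820, Keap1 at 12.5 ± 0.595 and Sod2 at 13.1 ± 0.986 (SD, n = 4), these 3 did not differ beyond their spread.

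A further 110 genes in 7 lists held the wider pathway, and 109 of them were tested. Between KD and LFD, 10 of the 109 passed the edgeR threshold, 3 higher and 7 lower on KD, where 0.981% of all genes were called higher and 3.14% lower. Of the 109, 72 had a difference above 0, beside 48.1% of all genes, with a median of 0.10 beside -0.02 for all genes. No list gene passed in the other 2 comparisons, where 11 (HFD against LFD) and 32 (KD against HFD) had an unadjusted edgeR p under 0.05, beside 9.99% and 22.7% of all genes. DESeq2 called 2 and 19 list genes there, beside 1.45% and 9.92%, and limma-voom 0 and 0.

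Metallothioneins, small metal-binding proteins that also scavenge oxidants, fell furthest. Mt2 was measured at 22.9, 33.4 and 51.8 CPM on LFD, 12.2 and 33.0 CPM on HFD, and 5.37, 6.46, 4.72 and 5.24 CPM on KD. The 4 KD libraries lay below all 5 others and close together. Mt2 fell by 2.72 on the log2 scale against LFD (SE 0.35, edgeR adjusted p = 0.00511) and passed with each of the 9 libraries left out in turn, at adjusted p from 0.00235 to 0.0275. It did not pass without KD libraries 1 and 3 (-2.62, adjusted p = 0.0998) or with the macrophage score as a covariate (-2.90, adjusted p = 0.0903). With that score 5 of all genes passed, beside 764 without it. Over all 20 alternatives the adjusted p of Mt2 ran from 9.3e-12 to 0.0998. Mt1 fell by 1.45 (SE 0.31, adjusted p = 0.0322), from 84.3 ± 21.9 CPM (SD, n = 3) to 31.0 ± 7.13 (SD, n = 4), and passed in 3 of 9 omissions.

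Of the 14 genes of NRF2 control, Dpp3, whose product binds KEAP1 and frees NRF2, rose by 0.63 (SE 0.14, edgeR adjusted p = 0.0357) from 45.3 ± 9.06 to 70.2 ± 4.59 CPM (SD, n = 3 and 4). Maff, a small MAF partner of NRF2, fell by 1.18 (SE 0.28, adjusted p = 0.0411) from 17.5 ± 4.14 to 7.71 ± 2.46 CPM. On HFD, Maff had a mean of 8.07 CPM, also below every LFD library and overlapping with KD. Dpp3 had a mean of 47.1 CPM on HFD and overlapped with LFD. The median of this list was 0.08. Of the 13 genes of glutathione synthesis and recycling, Slc25a39, the mitochondrial glutathione carrier, rose by 0.79 (SE 0.17, adjusted p = 0.0299) from 67.5 ± 6.70 to 117 ± 24.9 CPM, and the cystine transporter subunit Slc3a2 had a difference of 0.70 (adjusted p = 0.0555). Its list had 10 genes above 0, beside 48.1% of all genes, and a median of 0.42. In this list 5 genes had an unadjusted p under 0.05, all higher on KD, beside 22.7% of all genes in either direction. The acinar list moved with it, with 30 of 33 genes above 0 and a median of 1.51, and the largest difference of the glutathione list, that of Ggt1 at 1.35 (adjusted p = 0.226), was of a gene with means of 66.3, 37.4 and 169 CPM on LFD, HFD and KD. Ggt1 is named here after its values were seen, and the part of acinar tissue in the list's values was not tested.

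Among 22 peroxidase, peroxiredoxin and thioredoxin genes, Txnip, the inhibitor of thioredoxin that glucose induces, fell by 0.87 (SE 0.19, edgeR adjusted p = 0.0299) from 676 ± 81.8 to 371 ± 68.3 CPM (SD, n = 3 and 4). Txnip was at 405 ± 87.3 CPM (SD, n = 2) on HFD, also below every LFD library, and KD minus HFD was -0.13 (SE 0.21). Mitochondrial thioredoxin Txn2 was at 26.9 ± 4.16 and 38.0 ± 8.56 CPM, a difference of 0.50 (adjusted p = 0.147). Of 25 detoxification genes tested, Mgst1 and Ephx1, membrane enzymes that act on electrophiles, and Osgin1 fell by 1.04, 0.72 and 0.96 (SE 0.19, 0.17 and 0.20, adjusted p = 0.0185, 0.0423 and 0.0279), and the glutathione transferase Gsto1 rose by 0.94 (SE 0.24, adjusted p = 0.0490). Mgst1, Ephx1 and Osgin1 were also lower in both HFD libraries than in any LFD library, and HFD and KD overlapped. Their HFD minus LFD differences were -0.61, -0.58 and -1.08, and that of Gsto1 was 0.03. In 11 heme and iron genes none passed: Tfrc, the transferrin receptor, was at 63.3 ± 11 and 46.5 ± 5.03 CPM (adjusted p = 0.0992), and the ferritin light chain Ftl1 at 410 ± 17.4 and 575 ± 57.5 CPM (adjusted p = 0.106). Ftl1 and the glutathione transferases have near copies in the genome, and how reads shared with them were assigned is not known.

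The 15 genes that supply NADPH, the reductant for these enzymes, had 13 above 0, beside 48.1% of all genes, and a median of 0.31. None passed the edgeR threshold, and 4 had an unadjusted p under 0.05, all higher on KD, beside 22.7% of all genes in either direction. The acinar list also had 30 of 33 genes above 0, with a median of 1.51, and the part of acinar tissue in these values was not tested. Pgls and Taldo1, of the pentose phosphate pathway, had differences of 0.65 (adjusted p = 0.0638) and 0.37 (adjusted p = 0.169). Nnt, the mitochondrial transhydrogenase gene in which C57BL/6J mice carry a known deletion, was low on all diets at 2.21 ± 0.646, 2.84 ± 1.29 and 2.98 ± 1.19 CPM (SD, n = 3, 2 and 4).

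**Figure D5:**
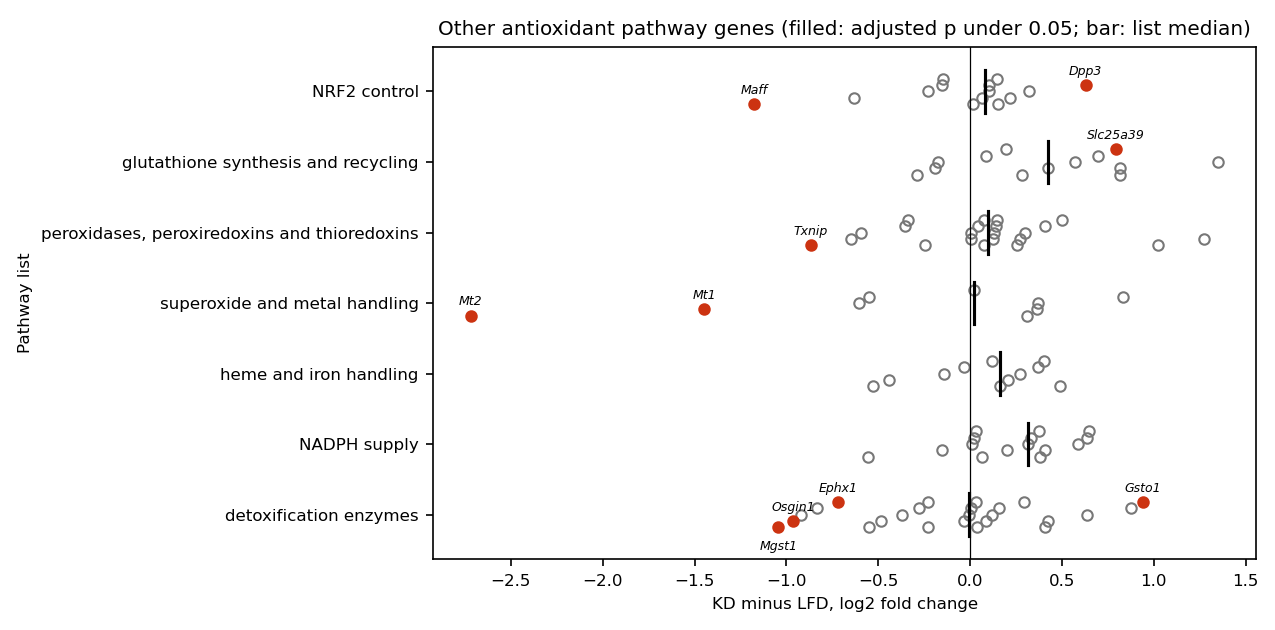
Log2 fold change KD minus LFD of the genes of each of the 7 antioxidant pathway lists, 1 point per gene, with the genes past the edgeR adjusted threshold named and the line at 0. Mt2 at -2.72 is the lowest point, and the glutathione list has its median at 0.42.

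These calls rested on few libraries. Without KD library 3, 1 of the 109 list genes passed (Mt2), without LFD library 1, LFD library 2 or KD library 2 it was 2 (Mt2 with Mgst1, with Dpp3 and with Mgst1), and without KD library 1 it was 6. The calls over all genes fell as well, from 764 to 151 without KD library 3 and 177 without LFD library 1. They numbered 224 without LFD library 2, 199 without KD library 2 and 378 without KD library 1. Without KD library 4, 15 list genes and 1348 of all genes passed. Of the 9 omissions, Mgst1 passed in 7, Maff, Txnip and Osgin1 in 5 each, Slc25a39 in 4, Dpp3 and Ephx1 in 2 each and Gsto1 in 1. Mt1 did not pass without a filter (adjusted p = 0.110) or with the acinar score (adjusted p = 0.130). Gsto1 did not pass with the acinar score, where its difference was 0.57 (adjusted p = 0.0759), nor with DESeq2 size factors (0.0522), the 5 CPM filter (0.0738) or only the diets compared (0.0763). Dpp3 did not pass with the 5 CPM filter (0.0579) or only the diets compared (0.0577), and Ephx1 not with the latter (0.0577). Over all 20 alternatives the adjusted p ran from 0.00044 to 0.199 for Mt1, 0.0065 to 0.352 for Gsto1, 0.0071 to 0.199 for Dpp3 and 0.0070 to 0.336 for Ephx1. None of the 109 passed without KD libraries 1 and 3 together, where 64 of all genes did, or with the macrophage score as a covariate, where 5 did. The differences of the 10 called genes kept their sign under every alternative. With the macrophage score Dpp3 was at 0.82, Mt1 at -1.80, Mgst1 at -0.97, Gsto1 at 0.85, Txnip at -0.78, Osgin1 at -0.67 and Maff at -0.46.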

How the data were processed

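Islet RNA from 9 libraries (3 LFD, 2 HFD, 4 KD) was sequenced after poly(A) selection and strand-specific library preparation, per the labels' protocols. The authors deposited raw counts per gene, not normalized, in 1 table with a column per sample. The submitters' processing notes name cutadapt 1.16, STAR 2.7.9a, featureCounts 1.6.3 and DESeq2 1.40.2 and the builds GRCm39 and mm39. For the counting, neither annotation release nor strand setting is stated, so reads of overlapping and antisense genes may not have been told apart. Counts of PCR reads without molecular identifiers carry counting error beyond what their number shows.

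Symbols for 51948 of 56941 identifiers, and transcript lengths, came from GENCODE M21 (GRCm38), and promoters from RefSeq (GRCm38.p6), another build than that of the counts. The analysis used edgeR 4.0.16 under R 4.3.3: filterByExpr left 18548 genes with at least 99.86% of each library's counts, libraries were scaled by TMM, and all 9 entered a robust quasi-likelihood fit with a mean per diet. Tests were two-sided, with Benjamini-Hochberg adjustment over all genes tested and a threshold of 0.05; the SE is the size of the difference over the square root of F. The procedure was tested on simulated counts that used the spread of each gene in this fit. In them genes varied independently and tissue shares did not differ between libraries, unlike in these data.

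The members, the 7 pathway lists and the marker lists were chosen with earlier results of these data known. All 10 members were named, and of each pathway list the called genes (up to 4) and the 2 with the lowest p between KD and LFD, with Nnt always. Alternatives were DESeq2 size factors, TMM without acinar and hormone genes, DESeq2 1.42.0, limma-voom (limma 3.58.1), no filter, a filter of 5 CPM in 3 libraries, a fit of only the diets compared, an acinar score, the replicate number as a block, and each library left out in turn. The limma-voom fit weighted libraries by estimated quality, from 0.389 for LFD library 3 to 2.57 for KD library 2. Leaving out KD libraries 1 and 3 and a macrophage score were added after seeing the data.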

Additional observations from a re-analysis of the deposited data

How the results depend on the processing

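The differences of Nfe2l2, Keap1, Hmox1 and Sod2 between KD and LFD kept their sign under all 20 alternatives, while their adjusted p lay on either side of 0.05. Between KD and LFD, all genes called numbered 383 with the 5 CPM filter, 1505 with the acinar score, 1773 by DESeq2, 1867 by limma-voom, 64 without KD libraries 1 and 3 and 5 with the macrophage score, beside 764. Members called numbered 1 without a filter (Hmox1), 1 with the 5 CPM filter (Nfe2l2), 4 with the acinar score, 3 by DESeq2 and 3 by limma-voom. Pathway genes called numbered 17 by limma-voom and 0 without KD libraries 1 and 3 or with the macrophage score, beside 10. Between HFD and LFD, where no gene was called, all genes called numbered 81 without a filter, 268 by DESeq2, 10 by limma-voom and 34 with the macrophage score, and pathway genes 1 without a filter and 2 by DESeq2. Between KD and HFD they numbered 316 without a filter and 1518 by DESeq2, members 2 by DESeq2, and pathway genes 5 and 19.

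With a replicate block the counts of all genes were 2003 (KD against LFD), 395 (HFD against LFD) and 2320 (KD against HFD), those of members 2, 2 and 4, and those of pathway genes 22, 1 and 27. Deviations of libraries with the same number correlated at -0.016 to 0.222 across genes, and those with different numbers at -0.277 to 0.238. The deviations of the 2 HFD libraries are equal and opposite, so this check cannot settle whether the numbers pair libraries.

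With 1 library left out at a time, all genes called ran from 151 to 1348 (KD against LFD), 0 to 194 (HFD against LFD) and 0 to 1793 (KD against HFD). Those extremes came without KD library 3 and KD library 4, LFD library 3, and KD library 4. Members called ran from 0 to 1 (KD against LFD) and 0 to 2 (KD against HFD) and numbered 0 throughout for HFD against LFD, and pathway genes from 1 to 15, 0 to 1 and 0 to 24. Where an omission left 1 HFD library, its spread was taken from the other diets. Signs changed in these omissions for KD minus LFD of Gclc (-0.58 to 0.025) and Sod1 (-0.026 to 0.097), for HFD minus LFD of Keap1 (-0.28 to 0.057), Srxn1 (-0.044 to 0.56), Sod1 (-0.033 to 0.070) and Sod2 (-0.12 to 0.12), and for KD minus HFD of Gclm (-0.036 to 0.014), Srxn1 (-0.30 to 0.30) and Sod1 (-0.060 to 0.062).

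The cause of the other sign changes was not tested. HFD minus LFD of Sod2 was -0.022 with DESeq2 size factors and by DESeq2, -0.0036 without a filter, -0.017 with the 5 CPM filter, -0.0082 with only the diets compared and -0.016 without KD libraries 1 and 3. KD minus HFD of Gclm was 0.011 with DESeq2 size factors and by DESeq2, 0.0038 with only the diets compared, 0.012 by limma-voom and 0.049 without KD libraries 1 and 3. Sod1 was -0.014 (KD minus LFD) and -0.032 (KD minus HFD) with the 5 CPM filter, -0.027 and -0.052 with the block, and -0.022 (KD minus HFD) by limma-voom. The acinar score was 9.72 and 8.72 in the HFD libraries and 9.77 to 12.2 in the KD libraries. Every KD score thus lay above both HFD scores, so the fit with it separates KD from HFD and the score poorly. With the acinar score HFD minus LFD was -0.060 for Srxn1 and -0.066 for Sod1, KD minus HFD was 0.025 for Hmox1, -0.28 for Gclc, 0.093 for Gclm, 0.62 for Srxn1 and -0.49 for Cat, and KD minus LFD of Nnt was -0.10. Nnt was -0.13 without KD libraries 1 and 3 and -0.43 with the macrophage score, KD minus HFD of Srxn1 was 0.20 and 0.17 in those fits, and KD minus LFD of Gclc was 0.035 with the macrophage score. The few counts of Nqo1 and Hmox1 and the 2 HFD libraries limit the precision.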
